A study of Arabidopsis thaliana with 18 samples.

Results

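The comparison described here set heart-stage embryos of Arabidopsis thaliana, the thale cress, against globular embryos, the step at which the cotyledons (seed leaves) emerge. It used 6 of 18 libraries, 3 of heart and 3 of globular embryos. Genes entered when 3 or more of these 6 libraries reached 1 TPM, which left 16479 of the 27564 genes in the deposited table. TPM states the abundance of a gene's transcripts relative to the rest of its library, corrected for transcript length. The study profiled mRNA of embryos at 6 stages, labelled 2/4-cell, 8-cell, 16-cell, 32-cell, globular and heart, with 3 libraries each. Per the labels, plants grew in a chamber under a long daily light period, embryos were dissected by hand, RNA was captured by its poly(A) tail, and cDNA was amplified for very small amounts of RNA. Heart and globular embryos shared all of this and differed in the labels by stage alone. No genotype, ecotype, treatment or number of embryos per library is given in the sources used here, nor whether replicates came from separate plants, so every p here speaks for the spread among these libraries alone, which may be technical.

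A globular embryo is a ball of cells with an outer protoderm, while a heart-stage embryo has lobes, the cotyledon primordia, on either side of a shoot meristem. In Arabidopsis, KNOX and BELL homeodomain proteins act as partners in the meristem, and YABBY, WOX, AS1, AS2 and ANT factors act in the organs that grow out beside it. Chloroplasts of the embryo also green at about this step, and the embryo is photosynthetic before it dries.

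Between 16520 and 16637 genes reached 1 TPM in a heart library, against 16190 to 16254 in a globular library. Between 5271 and 7365 genes were listed at 0 in a heart library, against 7648 to 8773 in a globular library, without overlap. Whether this bears on genes that were low in globular embryos was not tested. TPM carry no sequencing depth, so no counting error can be given, and a gene listed at 0 may have gone undetected. Pearson's r of log2(TPM + 1) over the genes tested was 0.961 to 0.979 between heart libraries, 0.960 to 0.978 between globular libraries and 0.944 to 0.963 between the stages. Genes are not independent replicates.

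The label embryo was checked against marker lists. LEC1 (AT1G21970), a regulator made in embryos, had 529, 482 and 526 TPM in heart libraries, against 500, 542 and 584 TPM in globular libraries. The protoderm gene PDF1 (AT2G42840) had 2264.2, 2182.0 and 2144.7 TPM in heart libraries, against 2995.5, 3184.9 and 3642.1 TPM in globular libraries. Embryo markers were high in both stages. A list of 22 seed coat genes, among them many of flavonoid synthesis, summed to between 192 and 204 TPM in heart libraries and between 183 and 201 TPM in globular libraries, and 0 of its 14 members tested were called. A list of 15 endosperm genes summed to 18.7 to 25.9 TPM in heart libraries and 15.3 to 26.3 TPM in globular libraries, and 0 of the 3 members tested were called. Neither list had a member at 0 in all 6 libraries, and the seed coat marker BAN (AT1G61720) averaged 1.42 ± 0.407 TPM in heart and 3.35 ± 2.54 TPM in globular embryos (SD, n = 3 each). Summed levels of both lists overlapped between the stages. Heat shock and wounding genes, listed as a sign of handling, gave 0 calls among 18 tested. Their median log2 change was -0.68, and libraries did not overlap at 5 lower members and 0 higher ones (5.75% of all genes tested were lower without overlap), and the part of these levels in other results was not tested. HSFA2 (AT2G26150), a heat shock factor, and HSP70 (AT3G12580), a chaperone, both chosen after their values were seen, had log2 changes of -1.04 and -1.82 (adjusted p = 0.0739 and 0.0757). The list had sums of 1283.7, 1026.1 and 932 TPM in heart libraries, against 900, 1636.9 and 1066.2 TPM in globular libraries, which overlapped.

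Heart and globular embryos differed at a modest number of genes, most of them higher in heart. By limma on log2(TPM + 1), 307 genes (1.86% of those tested) passed an adjusted p under 0.05. Of these, 219 (1.33%) were higher and 88 (0.534%) were lower in heart, and under quantile normalization the split was 161 higher and 103 lower. The 219 include 22 genes that passed the filter only through the heart stage, and the 88 include 1 that passed only through the globular stage. Changes of 2-fold or more were seen in 216 (1.31%), 163 of them higher and 53 lower. The median fold change on the TPM + 1 scale was 2.53 among higher genes and 2.15 among lower genes. Libraries of the stages did not overlap in any direction at 3377 genes (20.5%), at 2430 (14.7%) higher and at 947 (5.75%) lower in heart. All 307 called genes were among them, and 2398 genes had an unadjusted p under 0.05. Folds on the TPM + 1 scale understate the change of genes of low TPM. The median log2 change over all genes tested was 0.08. These shares and this median over all genes are the ones to set beside the counts of each list below.

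The calls leaned on 2 libraries. Without heart replicate 3 the count of called genes was 34, and without globular replicate 3 it was 52, while the other 4 fits that left out a library gave 209 to 265. All 307 genes kept their direction in each of these 6 fits, and 28 kept their call in all 6. In bulk samples, more cells of a type and more RNA per cell cannot be told apart.

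**Figure D1:**
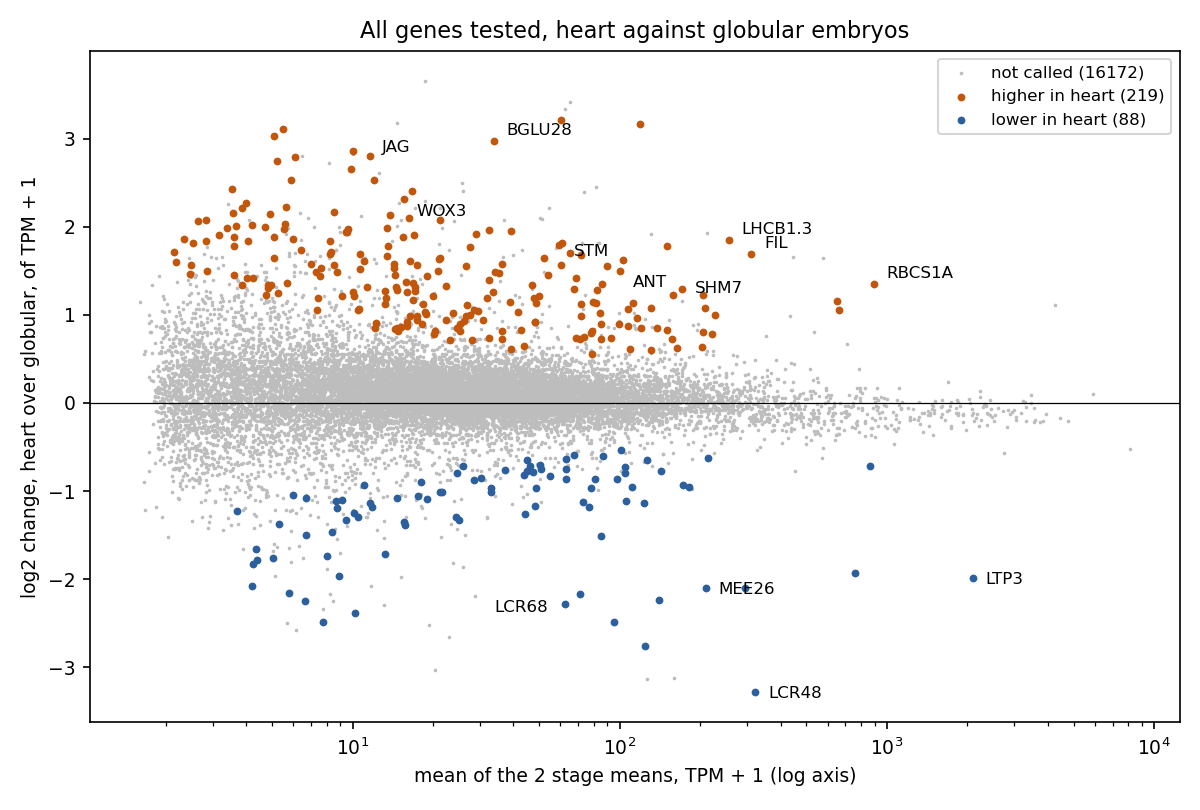
Each point is 1 of the 16479 genes tested. The x axis gives the mean of the heart and globular means (TPM + 1, log axis) and the y axis the fitted log2 change of TPM + 1, heart over globular. Orange points are the 219 genes called higher and blue points the 88 called lower in heart, grey points are genes not called, and most called genes lie above 0.

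Regulators of the shoot and of lateral organs stood out among the higher genes. Their list, like the others, was chosen with earlier results of these data known, so its share is a description. On a list of 31 such regulators 24 were tested, and 7 rose in heart embryos, namely STM, ANT, AS1, AS2, JAG, BOP2 and RPL, while none fell (29.2% called, against 1.33% of all genes tested called higher). Libraries did not overlap at 12 members that were higher and 2 that were lower (14.7% and 5.75% of all genes tested), and the median log2 change of the list was 0.59. STM (AT1G62360), the KNOX homeodomain factor that maintains the shoot meristem, had 100, 78.1 and 89.4 TPM in heart libraries, against 38.4, 23.3 and 28.1 TPM in globular libraries. All heart libraries lay above all globular libraries, and the log2 change was 1.57 ± 0.19 (SE, adjusted p = 0.00666). RPL (AT5G02030), a BELL partner of STM, had 29.8, 13.2 and 18.5 TPM in heart libraries, against 2.94, 7.28 and 3.13 TPM in globular libraries (log2 change 1.99 ± 0.35, adjusted p = 0.0271). The stages did not overlap at RPL either.

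Genes of the organs themselves also rose. ANT (AT4G37750), an AP2-type factor that promotes organ growth, had 188, 109 and 147 TPM in heart libraries, against 50.3, 51.9 and 49.1 TPM in globular libraries (log2 change 1.5 ± 0.18, adjusted p = 0.00702). AS1 (AT2G37630), a MYB factor that keeps KNOX genes off in leaves, had 72.9, 42.9 and 68.0 TPM in heart libraries, against 21.5, 12 and 12.2 TPM in globular libraries (log2 change 1.95 ± 0.26, adjusted p = 0.00987). Its partner AS2 (AT1G65620), of the LOB-domain family, was lower in level at 6.30, 4.78 and 5.78 TPM in heart libraries, against 1.98, 1.28 and 2.26 TPM in globular libraries (log2 change 1.23 ± 0.24, adjusted p = 0.0398). No library of one stage reached the range of the other for these genes.

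The steepest rises of the list were in JAG (AT1G68480), a zinc finger factor of lateral organ growth, and BOP2 (AT2G41370), a BTB-ankyrin protein that acts at organ bases. JAG had 23.1, 9.87 and 24.7 TPM in heart libraries, against 3.74, 1.41 and 0.746 TPM in globular libraries (log2 change 2.80 ± 0.42, adjusted p = 0.0149). BOP2 had 21.2, 9.85 and 17.1 TPM in heart libraries, against 1.28, 2.49 and 1.22 TPM in globular libraries (log2 change 2.65 ± 0.31, adjusted p = 0.0065). Heart replicate 2 was the lowest heart library for both. It was also the lowest heart library in 139 of the 219 genes higher in heart (63.5%), and heart replicate 3 was the lowest in 26. None of the 7 shoot regulators passed without heart replicate 3, with log2 changes of 1.21 to 2.58 and adjusted p of 0.0506 to 0.177. Without globular replicate 3, 2 of the 7 passed, with log2 changes of 1.34 to 2.53 and adjusted p of 0.0423 to 0.136.

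Other boundary and meristem genes were not called. CUC1 (AT3G15170), a NAC factor of the boundary between cotyledons, had 97.3, 124 and 109 TPM in heart libraries, against 88.6, 109 and 73.4 TPM in globular libraries (log2 change 0.30 ± 0.16, adjusted p = 0.452). CUC2 (AT5G53950) differed by a log2 change of -0.05 ± 0.14 and CUC3 (AT1G76420) by -0.83 ± 0.23, neither called (adjusted p = 0.906 and 0.123). The KNOX gene KNAT6 (AT1G23380) had a log2 change of 0.04 ± 0.11 (adjusted p = 0.926). WUS (AT2G17950), the stem cell regulator, had 1.86, 4.18 and 2.55 TPM in heart libraries, against 3.70, 2.22 and 3.24 TPM in globular libraries. These libraries overlapped. DRN (AT1G12980), an AP2-type factor of cotyledon initiation, had 10.7, 31.1 and 14.1 TPM in heart libraries, against 38.9, 49.8 and 40.3 TPM in globular libraries, without overlap but not called (log2 change -1.29 ± 0.32, adjusted p = 0.0915). CLV3 (AT2G27250), the signal peptide of stem cells, did not reach the filter, at 2.91, 0.908 and 0.991 TPM in heart libraries, against 0, 0 and 0.512 TPM in globular libraries.

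Among factors that give lateral organs an upper and a lower side, a pair rose and the rest did not pass the test. Of 20 polarity genes 15 were tested, and FIL and WOX3 rose while none fell (13.3% called, against 1.86% of all genes tested). The median log2 change was 0.03. FIL (AT2G45190), a YABBY factor of the lower side, had 546, 359 and 511 TPM in heart libraries, against 213, 125 and 110 TPM in globular libraries (log2 change 1.69 ± 0.25, adjusted p = 0.0138). WOX3 (AT2G28610), a homeodomain factor of organ margins, had 27.6, 18.8 and 28.4 TPM in heart libraries, against 4.53, 3.93 and 3.96 TPM in globular libraries (log2 change 2.31 ± 0.20, adjusted p = 0.0034). The stages were far apart at both genes. The call of WOX3 held without any single library, while that of FIL was lost without heart replicate 3 or globular replicate 3, with adjusted p up to 0.0758 and 0.0701. The upper-side factors of the HD-ZIP III family were at similar levels. PHB (AT2G34710) had 145, 161 and 154 TPM in heart libraries, against 182, 145 and 137 TPM in globular libraries, and PHV (AT1G30490) and REV (AT5G60690) had log2 changes of -0.03 ± 0.16 and 0.36 ± 0.19. The lower-side factors KAN1 (AT5G16560) and ETT (AT2G33860) had log2 changes of 0.27 ± 0.14 and -0.08 ± 0.12, not called. YAB3 (AT4G00180), a close relative of FIL, was below the filter, at 0.189, 0.145 and 1.07 TPM in heart libraries and listed at 0 in all 3 globular libraries.

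Homeodomain genes of other families were also among the rises, and these groups were picked after their values were seen. A group of 63 tested genes was taken by the words homeobox, homeodomain, BEL1-like, WUSCHEL or KNOTTED in their reference description. Capitals counted in this match, so genes described only as Homeodomain-like were left out. Of the 63, 12 rose and none fell (19% called, against 1.86% of all genes tested). HB33 and HB51, both among the 12, passed the filter only through the heart stage and are not read as a test. STM and BELL and ZF-HD genes are among those described, while WOX3 is not in this group. The median log2 change of the 63 was 0.20, and libraries did not overlap at 21 members that were higher and 9 that were lower (14.7% and 5.75% of all genes tested). Among 13 BELL genes 6 were tested, and RPL, BLH11, BLH6 and BLH7 rose (66.7% called, against 1.86% of all genes tested). BLH11 (AT1G75430) had 39.2, 26.6 and 34.6 TPM in heart libraries, against 6.53, 7.39 and 7.53 TPM in globular libraries (log2 change 2.07 ± 0.18, adjusted p = 0.0034), and kept its call without any single library. BLH6 (AT4G34610) had 38.3, 22.5 and 32.4 TPM in heart libraries, against 7.57, 11.7 and 8.38 TPM in globular libraries (log2 change 1.64 ± 0.23, adjusted p = 0.0112). BLH7 (AT2G16400) had 15.4, 10.5 and 16.2 TPM in heart libraries, against 1.55, 4.07 and 3.41 TPM in globular libraries (log2 change 1.94 ± 0.29, adjusted p = 0.0148). The 2 other tested members, BLH8 (AT2G27990) and BLH10 (AT1G19700), were not called but did not overlap either, with log2 changes of 0.67 ± 0.21 and 0.58 ± 0.27. Summed over the family, BELL genes reached 133, 86.3 and 116 TPM in heart libraries, against 25.4, 38.3 and 29.2 TPM in globular libraries, a ratio of 3.6 (exact permutation p = 0.1, the smallest that 3 against 3 libraries can give). Of the 4 called BELL genes, BLH11 alone passed without heart replicate 3 and again without globular replicate 3.

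The zinc finger homeodomain (ZF-HD) family, plant-specific factors that pair a zinc finger with a homeodomain, had 11 of 14 members tested. Of the 11, HB25, HB27, HB31 and HB33 rose and none fell (36.4% called, against 1.86% of all genes tested). HB25 (AT5G65410) had 58.3, 42.6 and 58.6 TPM in heart libraries, against 20.1, 17.9 and 13.4 TPM in globular libraries (log2 change 1.58 ± 0.19, adjusted p = 0.00666). HB31 (AT1G14440) had 23.2, 23.0 and 26.3 TPM in heart libraries, against 9.18, 9.89 and 12.8 TPM in globular libraries (log2 change 1.12 ± 0.17, adjusted p = 0.0146). HB27 (AT5G42780) had 30.3, 34.4 and 47.9 TPM in heart libraries, against 16.2, 19.9 and 16.1 TPM in globular libraries (log2 change 1.05 ± 0.19, adjusted p = 0.0289). HB33 (AT1G75240) was low, at 3.14, 1.81 and 3.08 TPM in heart libraries and listed at 0 in all 3 globular libraries. It passed the filter only through the heart stage, so its place among the 4 is not read as a test. The family was not uniform, and 2 members were lower in heart without overlap, though not called. HB28 (AT3G50890), chosen after its values were seen, had 11.8, 20.3 and 17.9 TPM in heart libraries, against 30.8, 23.5 and 27.2 TPM in globular libraries (log2 change -0.70 ± 0.21, adjusted p = 0.153). The other was HB24 (AT2G18350), with a log2 change of -0.15 ± 0.13. HB32 (AT1G14687) and HB30 (AT5G15210) overlapped between the stages, with log2 changes of -0.25 and -0.10 (adjusted p = 0.663 and 0.835). None of the 4 passed without heart replicate 3 (adjusted p 0.0514 to 0.119), and without globular replicate 3, 2 did.

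**Figure D2:**
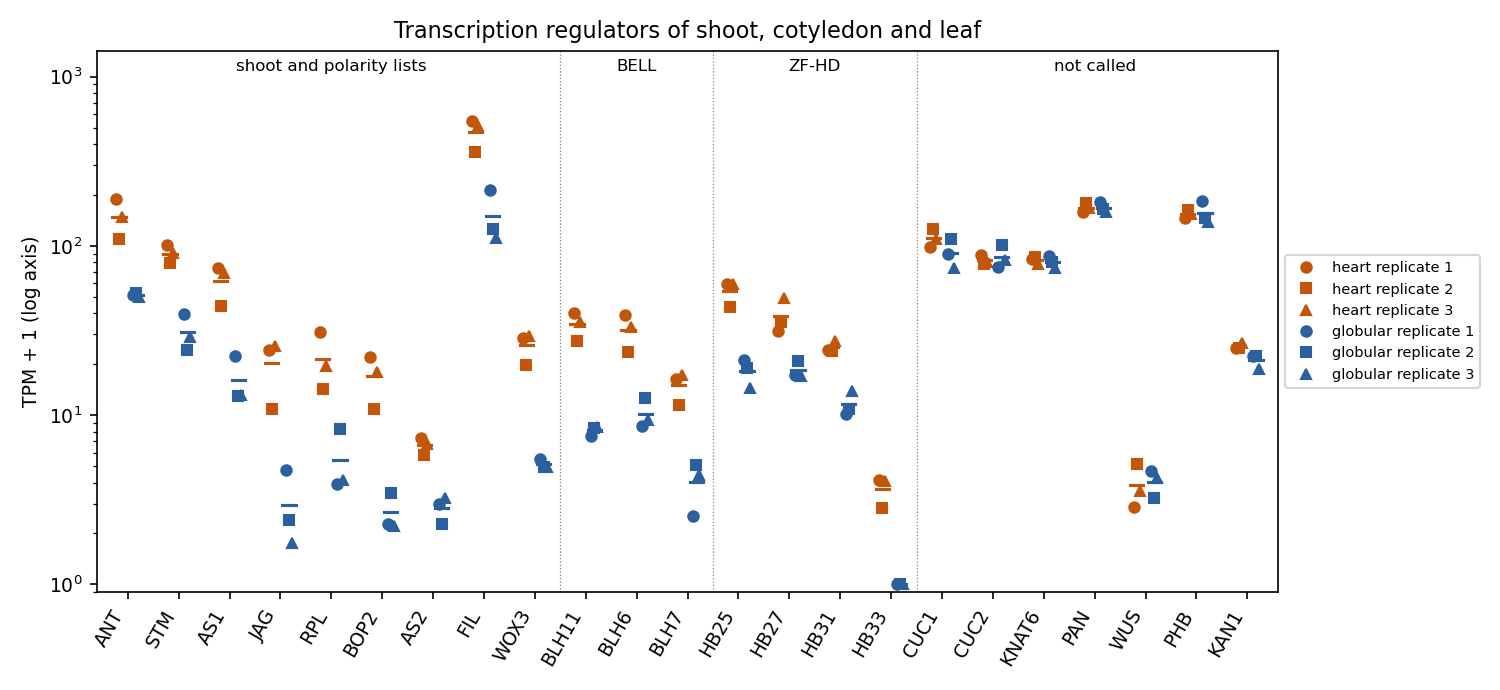
TPM + 1 (log axis) of transcription regulators in each of the 3 heart libraries (orange, left in each pair) and 3 globular libraries (blue, right), with the replicate given by the symbol and the stage mean by a bar. ZF-HD stands for zinc finger homeodomain. Heart libraries lie above globular libraries for the called genes at left. The genes not called at right, such as CUC2 and KNAT6, overlap between the stages, except KAN1.

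Some genes reached 1 TPM at the heart stage and not before it. All 3 heart libraries were at 1 TPM or more and all 3 globular libraries under 1 TPM at 101 genes, and the reverse held at 26 genes. All 15 libraries of the 5 earlier stages were under 1 TPM at 24 genes, and 3 of the 24 reached 5 TPM in every heart library. Such genes passed the 1 TPM filter only through the stage in which they were high, so their values are given here with no test. Of the 101, 22 were called and count among the 219 higher genes. Of the 26, 1 was called and counts among the 88 lower genes. These counts are read beside the smaller number of genes listed at 0 in heart libraries, whose part in them was not tested. The genes given here are from the 101 and were chosen after their values were seen. LSH4 and CLE42 are also among the 24, while UFO and HB51 are not. LSH4 (AT3G23290), of a family of nuclear proteins active at organ boundaries, had 10.8, 6.89 and 11.1 TPM in heart libraries, against 0.877, 0.234 and 0.472 TPM in globular libraries. CLE42 (AT2G34925), a CLE signal peptide, had 3.74, 2.80 and 5.46 TPM in heart libraries, against 0, 0.450 and 0.532 TPM in globular libraries. UFO (AT1G30950), an F-box protein of meristems and flowers, had 8.54, 2.71 and 5.04 TPM in heart libraries, against 0, 0.617 and 0.329 TPM in globular libraries. That the stages were apart at each of these genes follows from how they were chosen, and most values were low. HB51 (AT5G03790), an HD-ZIP factor of leaf shape, had 3.43, 5.03 and 6.19 TPM in heart libraries, against 0.260, 0.390 and 0.681 TPM in globular libraries. At earlier stages UFO had 1.37 TPM in 32-cell replicate 3. HB51 had 2.5 TPM in 2/4-cell replicate 2 and 1.36 TPM in 32-cell replicate 2.

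No gene on the lists of the root pole, of maturation and of the cell cycle was called, a share near the 1.86% of all genes tested, so that no result about these lists is read from it. On a list of 28 root and vascular genes 24 were tested and 0 were called, with a median log2 change of 0.03, and libraries did not overlap at 3 higher and 2 lower members. WOX5 (AT3G11260), the factor of the root stem cell niche, had 47.3, 40.9 and 33.0 TPM in heart libraries, against 39.4, 42.8 and 43.5 TPM in globular libraries. SCR (AT3G54220), a GRAS factor of the ground tissue, had 102, 73.5 and 74.2 TPM in heart libraries, against 73.3, 86.4 and 69.1 TPM in globular libraries. Both genes overlapped between the stages. Of 15 tested maturation regulators 0 were called. LEC2 (AT1G28300), FUS3 (AT3G26790) and ABI3 (AT3G24650), B3 factors of seed maturation, had log2 changes of 0.03 ± 0.13, 0.28 ± 0.16 and 0.50 ± 0.16. WRI1 (AT3G54320), which activates fatty acid synthesis genes, came close, at 114, 100 and 98.7 TPM in heart libraries, against 74.3, 71.2 and 68.3 TPM in globular libraries (log2 change 0.54 ± 0.11, adjusted p = 0.0513). Of 47 DNA replication genes and 48 mitosis genes tested, 0 were called, with median log2 changes of 0.08 and -0.10. Summed TPM of the mitosis list were 3039.7, 3418.9 and 2677.9 in heart libraries, against 3287.2, 3184.5 and 3124.2 in globular libraries, so the groups overlapped (exact permutation p = 0.6). The suspensor gene WOX8 (AT5G45980) had 2.34, 0.296 and 2.51 TPM in heart libraries, against 7.15, 5.10 and 12 TPM in globular libraries, without overlap but not called (adjusted p = 0.0769).

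Growth regulators tended upwards with few calls. Of 19 tested genes on this list GRF5 and TCP24 rose and none fell (10.5% called, against 1.86% of all genes tested). The median log2 change was 0.36, and libraries did not overlap at 8 higher and 1 lower member (14.7% and 5.75% of all genes tested). GRF5 (AT3G13960), a growth-regulating factor of leaf cell proliferation, had 182, 116 and 161 TPM in heart libraries, against 78.7, 69.8 and 57.7 TPM in globular libraries (log2 change 1.13 ± 0.18, adjusted p = 0.0186). TCP24 (AT1G30210), a TCP factor that limits proliferation, had 31.2, 27.4 and 34.6 TPM in heart libraries, against 20.4, 15.5 and 15.7 TPM in globular libraries (log2 change 0.82 ± 0.16, adjusted p = 0.0402). Heart libraries were the higher ones in both. KLU (AT1G13710), a cytochrome P450 that promotes organ growth, went the other way without a call, with 74.7, 56.6 and 75.0 TPM in heart libraries, against 108, 87.6 and 105 TPM in globular libraries (log2 change -0.54 ± 0.15, adjusted p = 0.122). Neither GRF5 nor TCP24 passed without heart replicate 3 or globular replicate 3 (adjusted p 0.111 to 0.197).

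Few genes of the epidermis lists were called. Of 19 protoderm regulators tested ER and EGL3 rose and none fell (10.5% called, against 1.86% of all genes tested). The median log2 change was -0.04, and libraries did not overlap at 4 higher and 3 lower members (14.7% and 5.75% of all genes tested). ER (AT2G26330), a receptor kinase of organ growth and stomatal spacing, had 180, 126 and 152 TPM in heart libraries, against 78.3, 89.8 and 65.5 TPM in globular libraries (log2 change 0.96 ± 0.16, adjusted p = 0.0243). EGL3 (AT1G63650), a bHLH factor of epidermal cell fate, had 22.0, 13.9 and 23.6 TPM in heart libraries, against 8.22, 7.66 and 6.45 TPM in globular libraries (log2 change 1.28 ± 0.22, adjusted p = 0.0243). CHAL (AT2G30370), a secreted peptide of the family that ER-type receptors bind, chosen after its values were seen, had 13.3, 10.6 and 11.5 TPM in heart libraries, against 3.21, 2.19 and 2.39 TPM in globular libraries (log2 change 1.84 ± 0.21, adjusted p = 0.00583). The peptide and the receptor were both higher in heart, while the related receptors ERL1 (AT5G62230) and ERL2 (AT5G07180) had log2 changes of -0.08 ± 0.12 and 0.32 ± 0.16, not called. ATML1 (AT4G21750), the homeodomain factor of protoderm identity, had 83.5, 66.1 and 63.6 TPM in heart libraries, against 71.5, 89.9 and 76.4 TPM in globular libraries. Neither ER nor EGL3 passed without heart replicate 3 or globular replicate 3 (adjusted p 0.115 to 0.133).

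Of 24 tested genes of cutin and wax 1 rose and 2 fell (12.5% called, against 1.86% of all genes tested). Libraries did not overlap at 1 higher and 12 lower members (14.7% and 5.75% of all genes tested), and the median log2 change was -0.18. LACS1 (AT2G47240), an acyl-CoA synthetase of cuticle lipids, had 58.5, 29.5 and 46.5 TPM in heart libraries, against 15.2, 10.7 and 7.28 TPM in globular libraries (log2 change 1.92 ± 0.29, adjusted p = 0.0152). CER5 (AT1G51500), a transporter that exports wax, had 2.92, 2.87 and 4.69 TPM in heart libraries, against 11.5, 11.5 and 10.7 TPM in globular libraries (log2 change -1.47 ± 0.21, adjusted p = 0.0138). KCS5 (AT1G25450), an elongase of very long fatty acids, had 1.78, 4.1 and 1.87 TPM in heart libraries, against 9.01, 7.35 and 10 TPM in globular libraries (log2 change -1.5 ± 0.28, adjusted p = 0.0320). LACS1 rose while CER5 and KCS5 fell. LTPG1 (AT1G27950), an abundant lipid transfer protein of the cuticle, had 855, 886 and 918 TPM in heart libraries, against 1249.9, 1101.1 and 1355.9 TPM in globular libraries, without overlap but not called (log2 change -0.47 ± 0.12, adjusted p = 0.0919). Of the 3 calls, 1 held without heart replicate 3 and none without globular replicate 3 (adjusted p up to 0.142 and 0.166).

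Of the hormone lists, 5.17% of auxin, 2.94% of cytokinin and 6.06% of gibberellin and brassinosteroid genes tested were called, against 1.86% of all genes tested. Of 58 auxin genes tested 3 rose and none fell, with a median log2 change of 0.10. PIN6 (AT1G77110), an auxin transporter, had 23.8, 13.7 and 22.1 TPM in heart libraries, against 7.87, 4.3 and 3.41 TPM in globular libraries (log2 change 1.78 ± 0.30, adjusted p = 0.0210). IAA31 (AT3G17600), an Aux/IAA repressor, had 22.2, 17 and 30.2 TPM in heart libraries, against 9.59, 4.3 and 3.66 TPM in globular libraries (log2 change 1.88 ± 0.32, adjusted p = 0.0245). MP (AT1G19850), the auxin response factor of embryo patterning, had a log2 change of 0.24 ± 0.21 and was not called. Of 34 cytokinin genes 1 was called, ARR3 (AT1G59940), a type-A response regulator, which had 5.17, 2.95 and 5.01 TPM in heart libraries, against 12.4, 8.73 and 16.7 TPM in globular libraries (log2 change -1.33 ± 0.27, adjusted p = 0.0475). Of 33 gibberellin and brassinosteroid genes GA2OX4 rose and DWF4 fell. GA2OX4 (AT1G47990), an enzyme that inactivates gibberellin, had 8.08, 4.17 and 13.4 TPM in heart libraries, against 1.09, 2.12 and 1.17 TPM in globular libraries (log2 change 1.86 ± 0.37, adjusted p = 0.0417). DWF4 (AT3G50660), an enzyme of brassinosteroid synthesis, had 69.2, 83.9 and 79.7 TPM in heart libraries, against 140.0, 132 and 115 TPM in globular libraries (log2 change -0.73 ± 0.13, adjusted p = 0.0263). No hormone gene named here kept its call without heart replicate 3 (adjusted p 0.115 to 0.161) or without globular replicate 3 (0.0774 to 0.207).

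Nuclear genes of photosynthesis were the group in which most members rose. Of 51 tested genes of the light-harvesting complexes, photosystems and electron transport 40 rose and none fell (78.4% called, against 1.86% of all genes tested). All 51 fitted changes were above 0, with a median log2 change of 1.11 against 0.08 over all genes, and libraries did not overlap at 48 (against 14.7% of all genes tested). Summed TPM of the 52 listed genes were 5399.5, 5433.0 and 6016.6 in heart libraries, against 2754.1, 2922.8 and 2636.0 in globular libraries. That is a ratio of 2.03 (exact permutation p = 0.1, the smallest possible here). By role, 12 of 12 photosystem I subunits, 9 of 11 photosystem II subunits, 11 of 13 light-harvesting proteins of photosystem II and 4 of 6 of photosystem I rose, but 4 of 9 genes of electron transport and ATP synthase did. LHCB2.3 (AT3G27690), which was called, and LHCA6 (AT1G19150), which was not, were under 1 TPM in every globular library. They passed the filter only through the heart stage.

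LHCB1.3 (AT1G29930), a light-harvesting protein of photosystem II, had 406, 340 and 446 TPM in heart libraries, against 90.8, 152 and 93.1 TPM in globular libraries (log2 change 1.85 ± 0.20, adjusted p = 0.00572). PSAO (AT1G08380), a photosystem I subunit, had 22.9, 24.7 and 29.9 TPM in heart libraries, against 6.61, 5.65 and 6.24 TPM in globular libraries (log2 change 1.90 ± 0.17, adjusted p = 0.0034). PSBS (AT1G44575), which lets photosystem II shed excess light, had 111, 72.6 and 98.0 TPM in heart libraries, against 25.1, 34.1 and 19.3 TPM in globular libraries (log2 change 1.82 ± 0.22, adjusted p = 0.00702). The libraries of the stages stood apart at all 3. PSBQ-2 (AT4G05180), of the oxygen-evolving complex, had the largest change of the list, with 11.8, 9.20 and 17.6 TPM in heart libraries, against 3.63, 1.22 and 1.58 TPM in globular libraries (log2 change 2.17 ± 0.33, adjusted p = 0.0149). The ferredoxin gene FD1 (AT1G10960) moved less and was not called, with 215, 271 and 262 TPM in heart libraries, against 200, 181 and 198 TPM in globular libraries (log2 change 0.36 ± 0.12, adjusted p = 0.202). The LHCB1 genes are near-identical copies, so how reads were split between LHCB1.3 and its relatives is uncertain. Without heart replicate 3, 9 of the 40 passed, and the 40 had log2 changes of 0.54 to 1.94. Without globular replicate 3, 12 passed, with log2 changes of 0.58 to 2.16 over the 40. In every fit that left out a library the same 9 passed. The list had 3 calls with all 18 libraries in the fit, 20 with the replicate number as a block and 26 with no filter.

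Carbon fixation followed. Of 18 tested Calvin cycle genes 7 rose and none fell (38.9% called, against 1.86% of all genes tested), with a median log2 change of 1.01. Summed TPM were 2442.9, 2120.4 and 2589.6 in heart libraries, against 1135.7, 1316.9 and 1165.1 in globular libraries (ratio 1.98, exact permutation p = 0.1). RBCS1A (AT1G67090), a small subunit of Rubisco, had 1217.5, 1152.8 and 1479.4 TPM in heart libraries, against 502, 519 and 483 TPM in globular libraries (log2 change 1.35 ± 0.12, adjusted p = 0.00362). Its call held without any single library. FBA2 (AT4G38970), a plastid aldolase, had 145, 105 and 149 TPM in heart libraries, against 41.3, 57.9 and 35.9 TPM in globular libraries (log2 change 1.55 ± 0.20, adjusted p = 0.00844). PRK (AT1G32060), which makes the substrate of Rubisco, had 21.2, 17.8 and 20.8 TPM in heart libraries, against 7.18, 9.14 and 4.36 TPM in globular libraries (log2 change 1.45 ± 0.24, adjusted p = 0.0193). Plastid triose phosphate isomerase, PDTPI (AT2G21170), which glycolysis of the plastid also uses, had a log2 change of 0.12 ± 0.11 (adjusted p = 0.686). Without heart replicate 3 or globular replicate 3, RBCS1A alone of the 7 passed.

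Of 33 tested genes of chlorophyll synthesis and its control 4 rose and none fell (12.1% called, against 1.86% of all genes tested). The median log2 change was 0.33, below that of the photosystem genes. GLK1 (AT2G20570), a factor that activates genes of chlorophyll synthesis and light harvesting, had 27.5, 19.8 and 25.7 TPM in heart libraries, against 12.5, 12.2 and 9.92 TPM in globular libraries (log2 change 1.01 ± 0.18, adjusted p = 0.0262). Its relative GLK2 (AT5G44190), looked at after the values were seen, had a mean of 3.37 ± 0.391 TPM in heart and 3.40 ± 0.859 TPM in globular embryos (SD, n = 3 each). CHLM (AT4G25080), a methyltransferase of chlorophyll synthesis, had 61.2, 55.6 and 69.9 TPM in heart libraries, against 30.9, 36.6 and 29.7 TPM in globular libraries (log2 change 0.92 ± 0.14, adjusted p = 0.0154). CRD1 (AT3G56940), a cyclase of the same route, and CHLP (AT1G74470), which makes its phytol tail, had log2 changes of 0.87 ± 0.16 and 0.85 ± 0.15. None of the 4 passed without heart replicate 3 (adjusted p 0.101 to 0.134) or without globular replicate 3 (0.0980 to 0.158). A list of photorespiration genes was drawn up after values were seen. Among 9 tested, GOX1 (AT3G14420) and GOX2 (AT3G14415), the peroxisomal glycolate oxidases, rose and none fell (22.2% called, against 1.86% of all genes tested). GOX1 and GOX2 are close relatives, so how reads were split between them is uncertain. GOX2 had 14.8, 12.4 and 18.8 TPM in heart libraries, against 4.07, 3.84 and 4.11 TPM in globular libraries (log2 change 1.69 ± 0.20, adjusted p = 0.00666). The 4 chloroplast lists together held 53 of the 219 genes higher in heart (24.2%).

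**Figure D3:**
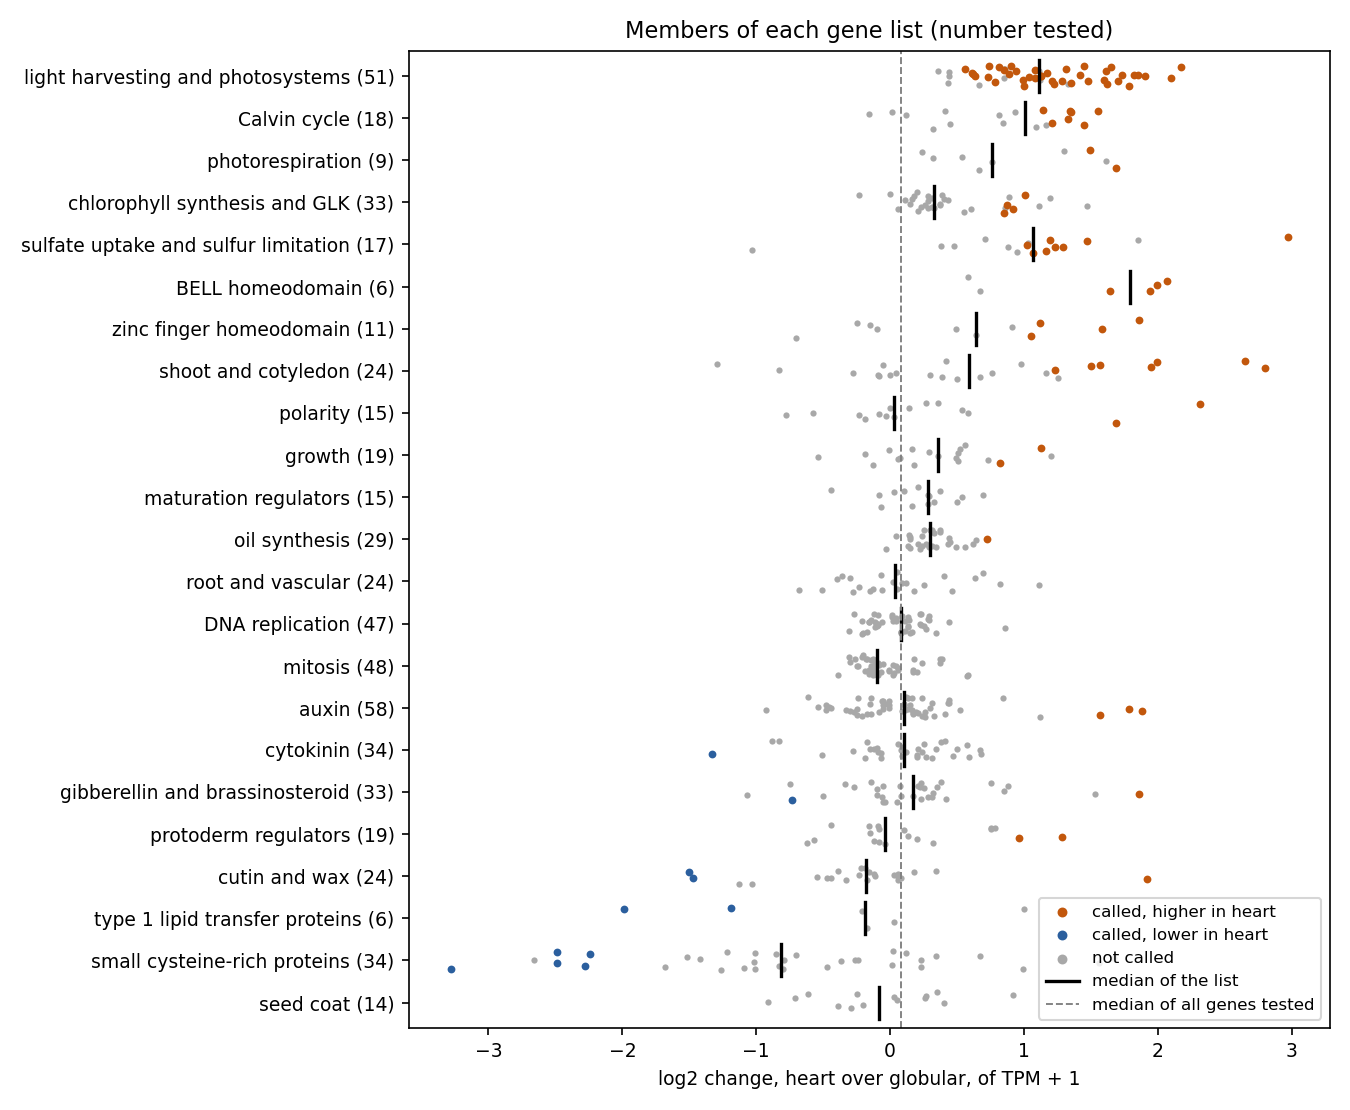
Fitted log2 change of TPM + 1, heart over globular, of each tested member of 23 gene lists (number tested in brackets). Orange points were called higher and blue points called lower in heart, grey points were not called, black bars are list medians and the dashed line is the median of all genes tested, 0.08. All 51 light-harvesting and photosystem genes lie above 0, while the mitosis and root lists lie around 0.

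Genes of sulfate use rose with them. This list too was drawn up after values were seen. Of 17 tested members 8 rose and none fell (47.1% called, against 1.86% of all genes tested), with a median log2 change of 1.07. Libraries did not overlap at 14 that were higher and 1 that was lower (14.7% and 5.75% of all genes tested). Summed TPM were 2511.7, 2519.4 and 2733.1 in heart libraries, against 1247.3, 1474.1 and 1048.6 in globular libraries (ratio 2.06, exact permutation p = 0.1). SHM7 (AT1G36370), a hydroxymethyltransferase tied to sulfur supply, had 235, 245 and 242 TPM in heart libraries, against 85.1, 132 and 84.3 TPM in globular libraries (log2 change 1.29 ± 0.17, adjusted p = 0.00969). SDI1 (AT5G48850), a repressor of glucosinolate synthesis that is induced by lack of sulfur, had 254, 272 and 327 TPM in heart libraries, against 138, 154 and 80.5 TPM in globular libraries (log2 change 1.23 ± 0.23, adjusted p = 0.0308). SULTR4;2 (AT3G12520), which releases sulfate from the vacuole, had 45.1, 43.6 and 40 TPM in heart libraries, against 22.1, 19.9 and 13.6 TPM in globular libraries (log2 change 1.19 ± 0.18, adjusted p = 0.0156). Heart libraries stood above globular libraries at each. BGLU28 (AT2G44460), a glucosidase that breaks down glucosinolates, had the largest of the 15 rises, with 75.1, 29.0 and 69.6 TPM in heart libraries, against 12.2, 8.97 and 1.56 TPM in globular libraries (log2 change 2.97 ± 0.58, adjusted p = 0.0388). The sulfate reductase APR2 (AT1G62180) did not overlap but was not called (log2 change 0.88, adjusted p = 0.0694). None of the 8 passed without heart replicate 3 (adjusted p 0.0586 to 0.212) or without globular replicate 3 (0.0549 to 0.211).

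Of 29 tested oil synthesis genes 1 rose (3.45%, against 1.33% of all genes tested called higher), the acyl carrier protein gene ACP4 (AT4G25050). Of the 29 fitted changes 28 were above 0 (median log2 change 0.30). ACP4 had 72.3, 101 and 90.0 TPM in heart libraries, against 55.8, 55.0 and 46.8 TPM in globular libraries (log2 change 0.72 ± 0.15, adjusted p = 0.0492). Of 24 genes of seed storage proteins and oil bodies 4 passed the filter and 2 were listed at 0 in all 6 libraries, so most of these transcripts were low at both stages. OLEO3 (AT5G51210), an oleosin that coats oil bodies, rose, with 17, 18.2 and 29.4 TPM in heart libraries, against 6.13, 3.97 and 2.52 TPM in globular libraries (log2 change 2.13 ± 0.30, adjusted p = 0.0110). Neither gene passed without heart replicate 3 (adjusted p = 0.213 for ACP4 and 0.0594 for OLEO3) or without globular replicate 3 (0.229 and 0.0535).

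Genes that fell were fewer. The lists of type 1 lipid transfer proteins and of small cysteine-rich proteins were drawn up after values were seen. LTP3 (AT5G59320), a secreted lipid transfer protein, was among the most abundant transcripts, with 723, 1022.5 and 793 TPM in heart libraries, against 3152.1, 2946.7 and 3933.7 TPM in globular libraries. The log2 change was -1.99 ± 0.17 (adjusted p = 0.0034), and the call held without any single library. LTP4 (AT5G59310), its close relative, had 3.95, 4.07 and 4.97 TPM in heart libraries, against 10.2, 11.6 and 11.5 TPM in globular libraries (log2 change -1.19 ± 0.18, adjusted p = 0.0156). These were the 2 of 6 tested members of their family that fell, and LTP6 (AT3G08770) and LTP1 (AT2G38540) overlapped between the stages. Genes described in the reference as lipid transfer proteins went both ways, with 3 rises and 4 falls among 35 tested (median log2 change 0.11). AT5G38160, of that wider family and chosen after its values were seen, had 13.3, 13.2 and 23.7 TPM in heart libraries, against 1.23, 1.1 and 1.79 TPM in globular libraries (log2 change 2.86 ± 0.27, adjusted p = 0.00362). As LTP3 and LTP4 are near copies, how reads were split between them is uncertain.

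Small cysteine-rich proteins include defensins and signals between plant cells, and 270 of them were listed. Of these 123 were listed at 0 in all 6 libraries and 34 were tested. Among the 34, 5 fell and none rose (14.7% called, against 0.534% of all genes tested called lower), with a median log2 change of -0.82. A mean of 1 TPM or more in heart embryos was reached by 25 of the 34. The others needed at least 1 globular library to pass the filter, so the median is not read as a test. LCR48 (AT3G48231) had 74.6, 59.4 and 21.0 TPM in heart libraries, against 158, 530.0 and 1083.6 TPM in globular libraries (log2 change -3.28 ± 0.65, adjusted p = 0.0425), the largest fall of any gene called. LCR68 (AT2G02130) had 32.3, 11.6 and 19.4 TPM in heart libraries, against 101, 70.5 and 135 TPM in globular libraries (log2 change -2.28 ± 0.34, adjusted p = 0.0146). The defensin-like gene AT1G77525 had 48.1, 55.0 and 38.6 TPM in heart libraries, against 173, 212 and 311 TPM in globular libraries (log2 change -2.24 ± 0.22, adjusted p = 0.00375), and kept its call without any single library. The globular libraries differed most among themselves at LCR48, where globular replicate 3 was highest. Globular replicate 3 was the highest globular library in 55 of the 88 genes lower in heart. Without heart replicate 3, and likewise without globular replicate 3, 1 of the 5 passed. LCR11 (AT4G11485) went the other way without a call, with 406, 738 and 535 TPM in heart libraries, against 511, 224 and 177 TPM in globular libraries.

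Other large falls named by the rule were in genes of unlike function. MEE26 (AT2G34870), described in the reference as a hydroxyproline-rich glycoprotein, had 83.1, 56.6 and 81.2 TPM in heart libraries, against 295, 194 and 544 TPM in globular libraries (log2 change -2.10 ± 0.32, adjusted p = 0.0157). MYB62 (AT1G68320), a MYB factor, had 11.5, 13.8 and 13.4 TPM in heart libraries, against 28.1, 28.7 and 44.6 TPM in globular libraries (log2 change -1.29 ± 0.20, adjusted p = 0.0149). GPX2 (AT2G31570), a glutathione peroxidase, had 27.1, 35.1 and 24.4 TPM in heart libraries, against 58.8, 61.2 and 77.6 TPM in globular libraries (log2 change -1.17 ± 0.17, adjusted p = 0.0138). That the libraries of the stages stood apart at all of these follows from the naming rule. The thioredoxin-like CXXS1 (AT1G11530), the caleosin CLO4 (AT1G70670), the germin-like GLP5 (AT1G09560), SYTC (AT5G04220), the transporter DTX1 (AT2G04040) and the receptor-like kinase PERK15 (AT1G52290) completed the 15 largest falls, with log2 changes of -1.97 to -0.80. Of the 15 falls, 2 passed without heart replicate 3 and 2 without globular replicate 3, LTP3 in both. Of the 15 largest rises, 3 and 5 passed, among them WOX3, BLH11 and PSAO in both. Enzymes among the rises were GSTU20 (AT1G78370), a glutathione transferase, and BCAT-1 (AT1G10060), a branched-chain aminotransferase. GSTU20 had 19.6, 13.7 and 24.9 TPM in heart libraries, against 1.06, 3.36 and 3.49 TPM in globular libraries.

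**Figure D4:**
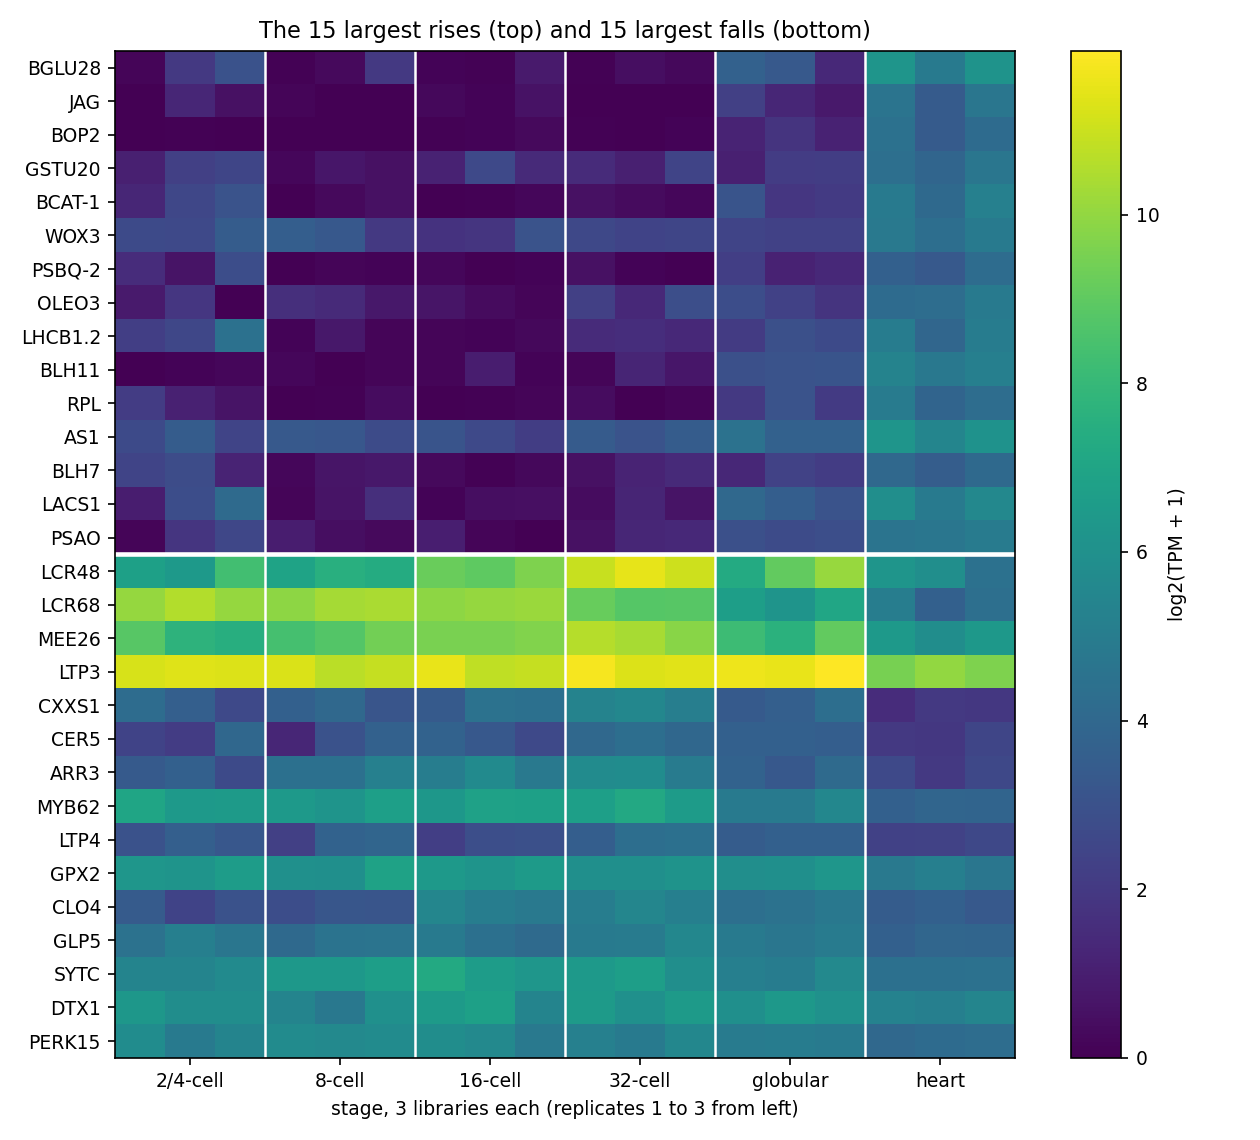
Colour gives log2(TPM + 1) of the 15 largest rises (top) and 15 largest falls (bottom) taken by the naming rule, in all 18 libraries ordered by stage. The rises are mostly brightest in the heart columns at right, while most falls are darker there than in the globular columns and include LTP3, LCR68 and MYB62, which were high from the 2/4-cell stage on.

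The levels of the called genes at the earlier stages are given as a description. Of the 219 genes higher in heart, 204 had their highest stage mean of log2(TPM + 1) at the heart stage, 12 at the 2/4-cell stage and 3 at other stages. Their median level was 3.42, 1.02, 1.05, 4.51, 9.77 and 24.8 TPM over the 6 stages in order, and 40 of them were under 1 TPM at each of the 4 earliest stages. Most were detected by the globular stage, where 189 of them averaged 1 TPM or more. STM averaged 0.261, 0.0746, 0.220 and 4.21 TPM at the 4 earliest stages, before the globular and heart levels given above. WOX3 instead was level, at 6.84, 7.54, 4.09 and 4.65 TPM, until the heart stage. Of the 88 genes lower in heart, the highest mean was at the 2/4-cell stage for 16, 8-cell for 17, 16-cell for 11, 32-cell for 27 and the globular stage for 17. Their median level was 55.6, 63.1, 60.5, 64.1, 49.7 and 22.7 TPM from the 2/4-cell to the heart stage, so it stayed within a narrow range until the last step.

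The sum of the light-harvesting and photosystem genes averaged 551, 202, 254, 1038.9, 2770.9 and 5616.4 TPM over the 6 stages in order. The 2/4-cell libraries were far apart, at 214, 339 and 1100.7 TPM. Sums of the sulfate list followed the same order of stages from 16-cell on, at 144, 349, 1256.7 and 2588.1 TPM. BELL genes averaged 17.8, 2.82, 1.73, 4.68, 31.0 and 112 TPM in sum from 2/4-cell to heart. The sum of small cysteine-rich proteins was highest at 32-cell, at 5880.6 TPM, and stood at 1610.0 TPM at globular and 862 TPM at heart.

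**Figure D5:**
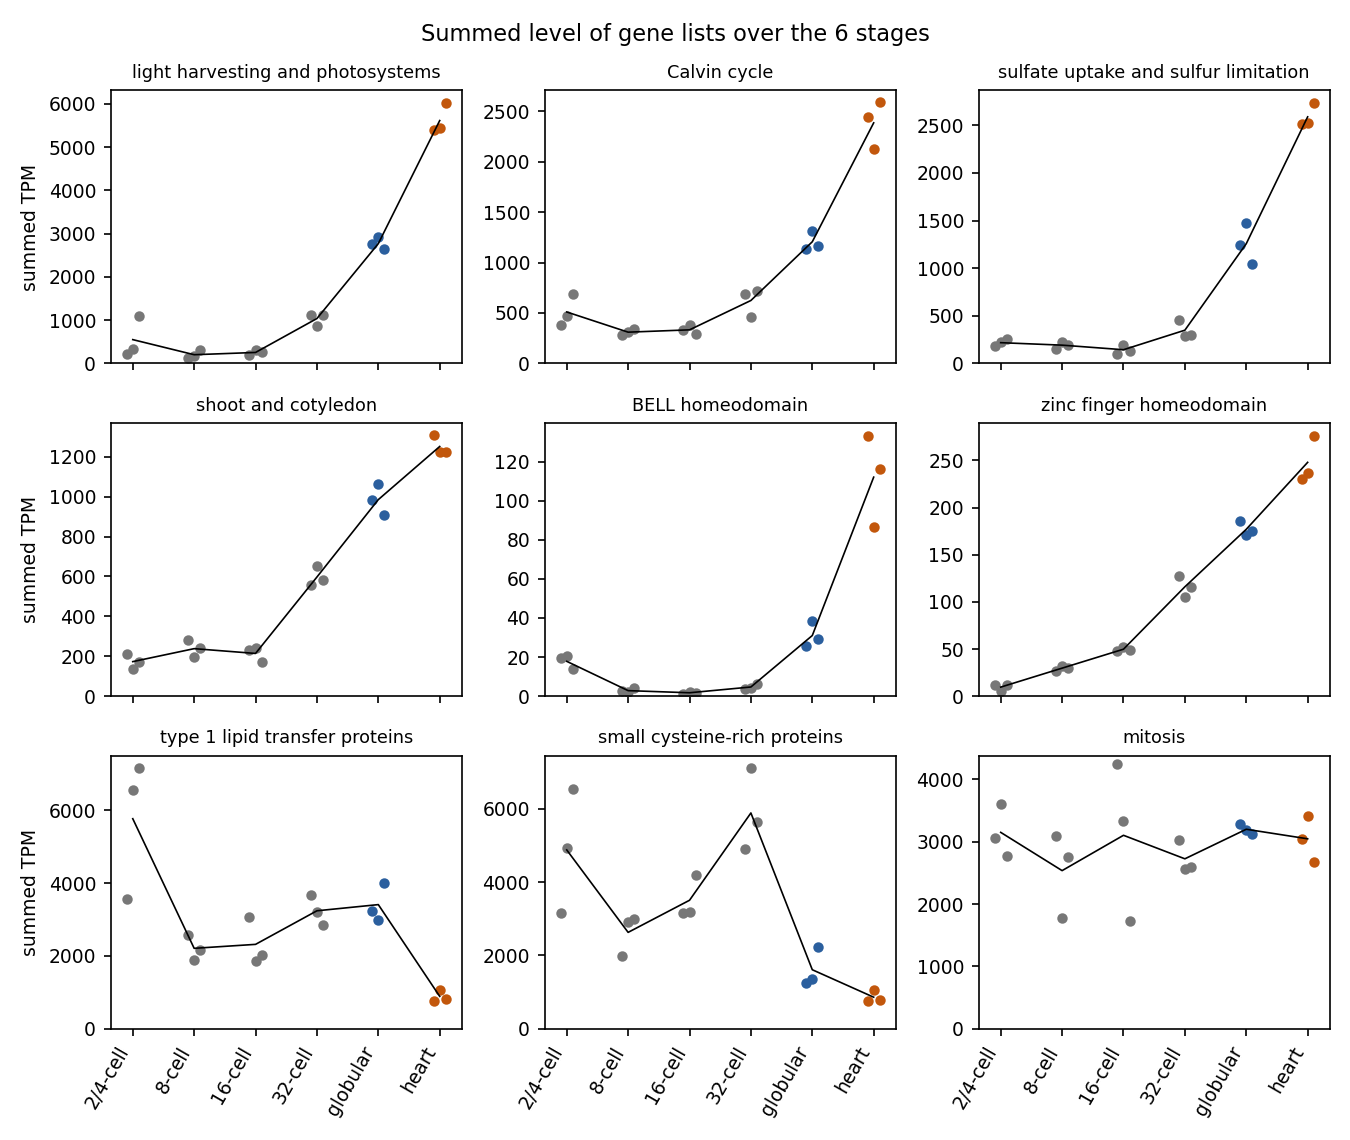
Summed TPM of 9 gene lists in each library at the 6 stages in order of development, with a line through the stage means. Globular libraries are blue and heart libraries orange, and each vertical axis starts at 0. The light-harvesting list averages 5616.4 TPM at heart, against 2770.9 TPM at globular, type 1 lipid transfer proteins drop at the last step, and the mitosis list stays level within its spread.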

How the data were processed

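The authors deposited 1 table of TPM per gene for 18 libraries, and no counts were used here. Per the submitters' processing notes, Trim Galore 0.6.6, kallisto 0.44.0 and TAIR10 were used. The step from transcripts to genes is not given in the sources used here. Poly(A) capture selects against organelle transcripts, whose levels are uncertain. TPM carry no depth, so precision rests on the spread between 3 libraries a stage. For names, 27445 identifiers matched the TAIR10.1 annotation and 119 organelle identifiers did not. Coordinates and sequences were not used, since that build differs, and promoters were not analysed here.

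A linear model of log2(TPM + 1) in the 6 heart and globular libraries was fitted, with moderation that follows the mean level, in limma 3.58.1 (R 4.3.3). Genes needed 1 TPM in 3 of 6 libraries. Tests were two-sided, with Benjamini-Hochberg adjustment over all 16479 genes. The script was tested on simulated data. Lists were described by counts and medians, and summed TPM by an exact two-sided permutation test over libraries, written in Python 3.11.15.

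The members and lists were chosen with earlier results of these data known. Called genes were eligible for naming when they had a symbol, averaged 10 TPM in the higher stage and did not overlap, and the 15 largest rises and 15 largest falls were taken. Each list added up to 5 called and 2 uncalled members, regulator lists any member, and the 5 most abundant genes at heart were eligible. BAN is a marker, and genes or lists said to be picked after their values were seen fall outside this rule. Alternatives changed the pseudocount, filter, scaling, moderation, weights and libraries.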

Additional observations from a re-analysis of the deposited data

How the results depend on the processing

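The depth behind TPM is unknown, so low genes are limited by detection that cannot be measured here, and 3 libraries a stage limit precision. All 307 called genes that could be tested kept their direction under every alternative run. No paired values are reported as results, because replicate numbers did not pair the libraries. Deviations of same-numbered heart and globular libraries correlated at -0.027, -0.157 and 0.019, and not every library correlated best with its own number. With the number as a replicate block 121 genes were called, 96 higher, 25 lower and 119 at 2-fold, and 35 members of the 22 lists written first, against 307, 219, 88, 216 and 75 without it (the 9 lists added after values were seen are not in this total). With all 18 libraries in the fit these counts were 126, 83, 43, 121 and 17. With no filter they were 90, 76, 14, 69 and 34, over 24710 genes. With library weights, which leaned on heart replicate 3 (2.63) and globular replicate 3 (2.70), they were 1802, 1278, 524, 619 and 171. By list, called light-harvesting and photosystem genes (40) were 20 with the block, 3 with all 18 libraries and 26 with no filter. Under the same 3 settings Calvin cycle genes (7) were 2, 0 and 2, and chlorophyll genes (4) were 0, 1 and 1. Sulfate genes (8) were 4, 1 and 2, and shoot and cotyledon genes (7) were 5, 6 and 3. A pseudocount of 5 left 120 genes at 2-fold. Leaving out 1 library gave 34 to 265 called, 26 to 200 higher, 7 to 71 lower, 34 to 226 at 2-fold and 12 to 71 list members. The median log2 change was -0.00 under median-ratio scaling and -0.01 under quantile normalization, with 62.6% and 61% of calls higher in heart, and 84.4% with no filter. Under the other alternatives these totals stayed within 1.5 times, but single lists moved more. Called chromosome 2 loci (9) were 5 with a filter of 5 TPM, 4 with a pseudocount of 0.1 and 3 under quantile normalization. Sulfate genes (8) were 5 with a pseudocount of 0.1. Gibberellin and brassinosteroid genes (2) were 5 with organelle genes left out and under robust moderation, and 1 with a pseudocount of 5. Small cysteine-rich genes (5) were 3 and plastid-encoded genes (2) 0 under robust moderation, where seed storage genes (1) were 2. Growth genes (2) were 1 under median-ratio scaling and quantile normalization, photorespiration genes (2) were 1 under quantile normalization, and the single cytokinin call was lost with either pseudocount. The oil synthesis call (ACP4) was lost with either pseudocount and under both scalings. Lists with 0 calls gained 1 in heat shock (median-ratio scaling), maturation (filter of 5 TPM, organelle genes left out) and mitochondrion-encoded genes (filter of 5 TPM). The cause was not tested. Promoter motifs were not run.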

Other observations

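Further groups, picked after their values were seen except for the sugar transport list, added to the account above. Of 46 tested histone genes 0 were called, but libraries did not overlap at 17 that were lower and 2 that were higher in heart (median log2 change -0.15). Over all genes tested these shares were 5.75% lower and 14.7% higher. Of 321 tested genes described as ribosomal proteins 1 rose and none fell, with 43 lower and 25 higher without overlap (median log2 change -0.07). Genes described as TRAF-like or with a MATH domain had 4 falls and no rise among 46 tested (8.7% called, against 0.534% of all genes tested called lower). As a group they did not fall, as 24 of the 46 fitted changes were above 0 (median log2 change 0.03). AT1G31400, a TRAF-like gene, had 24.9, 26.6 and 23.4 TPM in heart libraries, against 64.0, 51.8 and 69.4 TPM in globular libraries (log2 change -1.26 ± 0.14, adjusted p = 0.00631), after means of 484, 362, 211 and 121 TPM at the 4 earliest stages. Its neighbour by number, AT1G31390, followed the same order, with 390.0, 254, 112 and 46.6 TPM at those stages, 8.54, 3.21 and 4.45 TPM in heart libraries and 20.3, 14.7 and 22.1 TPM in globular libraries. AT4G04090, a BTB/POZ domain gene, had 56.1, 14.8 and 26.0 TPM in heart libraries, against 119, 185 and 337 TPM in globular libraries (log2 change -2.76 ± 0.47, adjusted p = 0.0234). The glycine-rich protein gene AT1G04660 had the largest rise of any nuclear gene called, with 88.7, 80.6 and 151 TPM in heart libraries, against 19.2, 7.46 and 7.26 TPM in globular libraries (log2 change 3.21 ± 0.36, adjusted p = 0.00583). On a list of sugar transporters and sink enzymes 0 of 11 tested were called, with sums of 136, 101 and 113 TPM in heart libraries, against 129, 179 and 236 TPM in globular libraries, which overlapped.

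Organelle transcripts were uneven. Summed TPM of 31 mitochondrion-encoded genes were 4304.4, 2704.8 and 1650.2 in heart libraries, against 1454.9, 1138.1 and 1565.0 in globular libraries, with 0 of 27 tested called. Nuclear loci AT2G07600 to AT2G07799, a stretch of chromosome 2 known to hold a copy of the mitochondrial genome, summed to 1808.9, 1308.4 and 927 TPM in heart libraries, against 696, 744 and 815 TPM in globular libraries. Of 77 of these loci tested 9 rose and none fell (11.7% called, against 1.86% of all genes tested). The count of calls was 1 to 5 in the 6 fits that left out a library and 3 under quantile normalization. Both sums had the same order of heart libraries, and reads of the copies cannot be told apart. Plastid-encoded genes summed to 10553.8, 4313.1 and 6741.9 TPM in heart libraries, against 5673.7, 4324.7 and 6019.0 TPM in globular libraries, and 2 of 87 tested rose (1.33% of all genes tested were called higher). That count was 18 without heart replicate 2, 5 without globular replicate 2, 0 without heart replicate 3 and 0 under robust moderation. With organelle genes left out of the total, 365 genes were called, 305 of them among the 307.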
